A study of Mus musculus with 8 samples.

Results

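The 77 mitochondrial ribosomal protein genes of the mouse retina are described here, in 4 Rbfox2-/- and 4 control mice. They are the genes of the deposited count table whose symbol is Mrpl or Mrps followed by a number and at most 1 letter, 77 of 17500 genes. The symbols of 48 of them name the large subunit of the mitochondrial ribosome (Mrpl) and those of 29 the small subunit (Mrps). The rule reads symbols and no measured value, but the family was taken up with earlier results of these data known.

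The mitochondrial ribosome translates the few proteins that mitochondrial DNA encodes, all of them core subunits of the respiratory chain and the ATP synthase. Its RNA comes from mitochondrial DNA, but all of its proteins are encoded in the nucleus, made in the cytosol and imported. Photoreceptors, the most numerous neurons of the mouse retina, pack their inner segments with mitochondria, and retinal ganglion cell axons are known to be sensitive to defects of respiratory chain subunits. Rbfox2 is an RNA-binding protein that regulates alternative splicing.

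All 8 mice were C57BL/6J and 6 months old, and the labels give whole retina as the tissue. The treatment field mentions tamoxifen and 4 months for every mouse, controls included, whereas in the study's methods the drug was given for a few days and the retinas were taken 4 months after induction. The methods also name a corn oil vehicle and do not say which mice received it. The Rbfox2-/- mice, labelled Rbfox2 KD, carried floxed Rbfox2 alleles and a tamoxifen-inducible Cre driven by the ubiquitin C promoter, so that the deletion was not limited to a retinal cell type. Per the study's methods the controls were age-matched Rbfox2 fl/+ mice, which carry 1 floxed and 1 wild-type allele, and whether they carried Cre is not given in the sources used here. Each mouse gave 1 poly(A)-selected library, with 160630226 to 211283591 counts on genes. Values are given as CPM, counts relative to the TMM-scaled library size, when one gene is compared between mice. They are given as FPKM, the deposited values per gene length and sequencing depth, when genes are compared with each other. A log2 fold change above 0 means a higher level in the Rbfox2-/- mice. Where values per mouse are listed, controls come as M833, M894, M896, M898 and Rbfox2-/- mice as M893, M901, M902, M909.

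Rbfox2 itself stood at 53.6 to 59.4 CPM in the Rbfox2-/- mice and at 144 to 157 CPM in the controls, and the groups did not overlap. The tissue label was checked against marker genes, and the 10 rod markers summed to 66097 to 71032 CPM in the controls and 68723 to 74761 CPM in the Rbfox2-/- mice. The libraries of 2 of the Rbfox2-/- mice, M901 and M902, stood apart. They held 277506 and 275967 counts of Xist, the RNA of the inactive X chromosome, against 312 to 426 in the other 6 libraries, so that no control library shared this property. Results are therefore also given without these 2 mice. No member lies on the X chromosome.

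All 77 members were expressed well above the counting limit. Their counts ran from 166 to 18812 per mouse and gene, and all 77 passed the filter on low counts. Together they took 1547 to 1676 CPM without TMM scaling.

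In the GENCODE M21 annotation of GRCm38 the 77 genes were spread over 17 chromosomes, with 10 on chromosome 11, the most for one chromosome, and 8 on chromosome 17. A close opposite-strand neighbour was common among them. Of the 77, 33 (42.9%) had the start of a protein-coding gene on the other strand within 1000 bases of their own start, against 13.8% of the 15388 protein-coding genes of the table. Mrpl46 and Mrps11 are such a pair within the family. As the strand setting of the counting is not given in the sources used here, reads of the 31 members that overlap a gene on the other strand cannot be told apart from those of that gene. A gene on the same strand overlapped 6 members, 3 of which are among these 31.

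Short letter motifs of promoters of ubiquitously expressed genes stood in a larger share of the member promoters than of all promoters. RefSeq promoters, 250 bases before to 50 after the start, were at hand for 68 of the 77 members, 74 promoters in all. The ETS core CCGGAAG, in either orientation, stood in 25 of the 74 (33.8%), against 14.0% of the 16019 promoters of genes in the count table and 8.86% of all 32851 promoters. The core of nuclear respiratory factor 1, GCGCANGCG in either orientation, stood in 16 of the 74 (21.6%), against 10.8% and 6.25%. At least 1 of the motifs was found in 35 member promoters (47.3%), against 22.6% of those of the table. These shares are descriptions of letters, and binding was not measured. Among large subunit promoters the ETS core stood in 14 of 47 and the NRF1 core in 12, and among small subunit promoters in 11 and 4 of 27.

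The 250 bases before the RefSeq start (GRCm38.p6) are shown for 4 members, with the motifs in capitals and positions counted back from the start. Mrpl34 and Mrps26 had the lowest p among the members higher and lower in Rbfox2-/- retinas. Mrpl45 shows a promoter with the NRF1 core at 2 places, and Mrpl22 one with both motifs.
Mrpl34, chr8:71464676-71464925, plus strand, with an ETS core whose first base is at -37: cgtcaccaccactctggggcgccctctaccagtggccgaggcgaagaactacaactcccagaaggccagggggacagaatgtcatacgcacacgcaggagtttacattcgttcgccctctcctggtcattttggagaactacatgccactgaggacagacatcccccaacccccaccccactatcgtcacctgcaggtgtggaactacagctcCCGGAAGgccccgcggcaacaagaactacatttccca
Mrps26, chr2:130563507-130563756, plus strand, with an ETS core on the opposite strand at -14: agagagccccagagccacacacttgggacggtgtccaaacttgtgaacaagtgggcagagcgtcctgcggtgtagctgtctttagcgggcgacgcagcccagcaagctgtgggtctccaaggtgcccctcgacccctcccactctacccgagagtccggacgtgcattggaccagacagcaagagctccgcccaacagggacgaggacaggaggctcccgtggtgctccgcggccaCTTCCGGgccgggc
Mrpl45, chr11:97315466-97315715, plus strand, with NRF1 cores at -120 and -38: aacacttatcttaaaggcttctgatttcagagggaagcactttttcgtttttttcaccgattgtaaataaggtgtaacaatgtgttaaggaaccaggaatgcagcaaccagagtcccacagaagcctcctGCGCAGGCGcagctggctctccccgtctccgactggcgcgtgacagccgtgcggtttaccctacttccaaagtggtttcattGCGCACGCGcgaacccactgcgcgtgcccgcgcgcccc
Mrpl22, chr11:58171414-58171663, plus strand, with an NRF1 core at -33 and an ETS core at -53: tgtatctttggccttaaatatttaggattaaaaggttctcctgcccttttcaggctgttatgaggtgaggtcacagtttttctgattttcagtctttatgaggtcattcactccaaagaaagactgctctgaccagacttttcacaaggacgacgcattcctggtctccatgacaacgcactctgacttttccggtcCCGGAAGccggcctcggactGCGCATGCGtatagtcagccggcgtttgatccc
The last 15 bases of the Mrps26 stretch, which hold its motif, lie inside the GENCODE model of the gene, whose start is placed further upstream.

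Levels per gene length differed 30.7-fold between the members in the control retinas. The median was 16.7 FPKM over the 77 genes, 17.9 over the large and 14.3 over the small subunit genes. Mrps21, the counterpart of bacterial S21, was the highest at 53.0 ± 2.40 FPKM (SD, n = 4). It was followed by Mrpl49 at 50.5 ± 1.67 FPKM and Mrpl54 at 44.8 ± 1.67 FPKM, both mitochondria-specific proteins of the large subunit. The difference between Mrps21 and Mrpl49 was about the size of their SDs, so that their order is not resolved by these mice.
Mrpl20, the counterpart of bacterial L20, stood at 38.6 ± 0.798 FPKM and Mrpl52, a mitochondria-specific protein, at 37.0 ± 0.895 FPKM. At the other end stood Mrpl17 with 4.01 ± 0.155 FPKM, Mrpl19 with 3.75 ± 0.131 FPKM, Mrps25 with 3.71 ± 0.228 FPKM and Mrpl35 with 3.34 ± 0.228 FPKM. Mrpl19 and Mrps25 differed by less than their SDs. Mrpl23, whose bacterial counterpart lies at the exit of the polypeptide tunnel, was the lowest of all at 1.73 ± 0.0820 FPKM. The gene length behind the deposited FPKM, as implied by the counts, bears on these ranks. It was 6712 bases for Mrpl17, 6065 for Mrps25, 5000 for Mrpl19 and 3695 for Mrpl35, against 407 for Mrps21 and 412 for Mrpl52. For Mrpl17 the level not divided by length was 26.8 CPM, with only 15 members above it.
Most of these proteins are present in a single copy in the finished particle, and the range given is one of the RNAs only. Only uniquely mapped reads were counted, so a gene with a near-identical copy may be undercounted. Of the members, 4 had a pseudogene named after them in the annotation, Mrpl23 and Mrpl48 among them with 1 each and Mrps36 with 3. Their levels are uncertain for that reason.

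**Figure D1:**
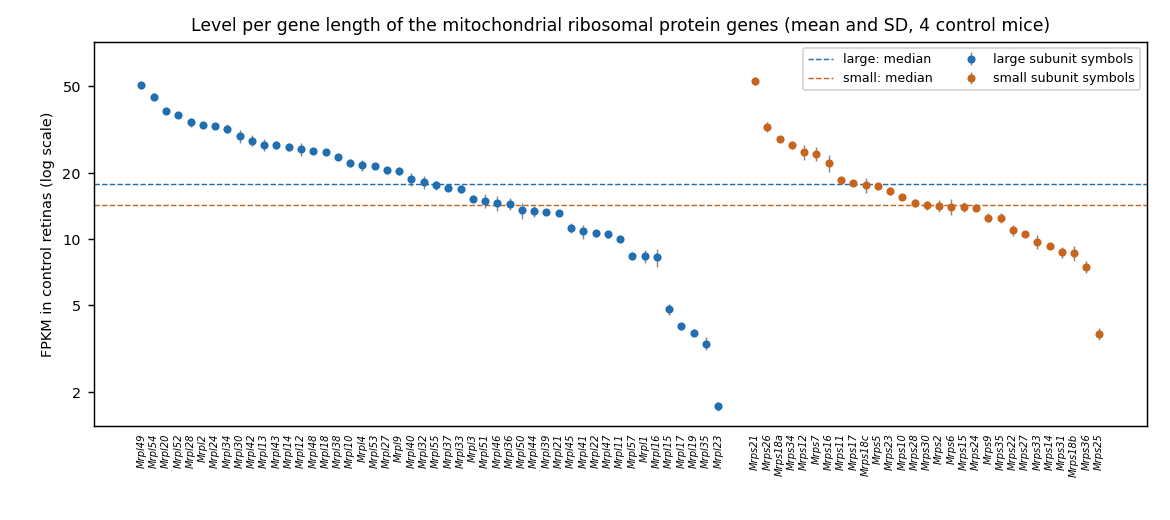
Mean FPKM (points) and SD (bars) of each of the 77 members over the 4 control mice, on a log scale, sorted within the large (blue) and small (orange) subunit symbols, with the median of each as a dashed line. The large subunit genes reach from 1.73 to 50.5 FPKM and the small subunit genes from 3.71 to 53.0.

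The members varied little between mice of one group. The median coefficient of variation over the 4 controls was 4.02% for the members and 5.91% for the 11054 tested genes in the same range of CPM. The median size of the log2 fold change, whatever its sign, was 0.049 for the members and 0.066 for those genes. The ends of that range are the lowest and the highest member, Mrpl23 and Mrpl49, and the other members lay well inside it. The genes compared were therefore not matched to the members by level. The part of expression level in both differences was not tested.

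No member passed the threshold of an adjusted p under 0.05 between Rbfox2-/- and control retinas in the quasi-likelihood test of edgeR, with p-values adjusted by Benjamini-Hochberg over the 16797 genes tested. The test called 11 genes in all (0.0655%), and at that share less than 1 call would fall on 77 genes. DESeq2 called 465 genes (2.77%), edgeR's likelihood ratio test 164 (0.976%) and limma-voom 11 (0.0655%), and each of them called 0 members. At an unadjusted p under 0.05 the quasi-likelihood test counted 5 members as higher and 2 as lower, where 6.42% of all genes were higher and 6.87% lower. The lowest adjusted p of a member was 0.276, that of Mrpl34. DESeq2 and limma-voom also counted 5 and 2 at an unadjusted p under 0.05, and the likelihood ratio test 1 and 0. The lowest and highest log2 fold changes of a member were -0.12 and 0.17.

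More members lay above than below 0. Of the 77 log2 fold changes, 57 were above 0 (74.0%), against 50.7% of all genes tested, and their median was 0.039, against 0.0016 over all genes. Without M901 and M902, 39 of 77 were above 0, against 48% of all genes, with a median of 0.00092. Over all genes the median was then -0.0043, so the family lay close to the background once these mice were left out. With 1 surrogate variable in the model, 42 of 77 were above 0. Members vary together from mouse to mouse, so these counts are descriptions of 8 libraries and not of 77 independent observations.

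The large subunit genes lay higher than the small subunit genes, a difference that was not tested. Of the large subunit genes 41 of 48 lay above 0, with a median log2 fold change of 0.045, and of the small subunit genes 16 of 29, with a median of 0.0086. Without M901 and M902 it was 28 of 48 with a median of 0.012 and 11 of 29 with a median of -0.0074.
The symbols do not always give the place of a protein. Mrps18a and Mrps30 sit in the large subunit of the assembled ribosome in spite of their names, and Mrps36 belongs to the oxoglutarate dehydrogenase complex of the citric acid cycle. With these moved or left out, 42 of 50 large subunit genes lay above 0 with a median of 0.044, and 14 of 26 small subunit genes with a median of 0.0065.
The proteins were also divided into those with and those without a bacterial counterpart, a division chosen after the values had been seen. It kept the subunits named by the symbols. Mrps18a was therefore counted as small with a counterpart, and Mrps30 and Mrps36 as small without one. In the large subunit the medians were 0.041 over 28 genes with and 0.056 over 20 genes without a counterpart. Among the small subunit symbols they were 0.033 over 17 genes with and -0.0055 over 12 genes without one. Without M901 and M902 these medians were 0.0089, 0.014, -0.0037 and -0.058.

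**Figure D2:**
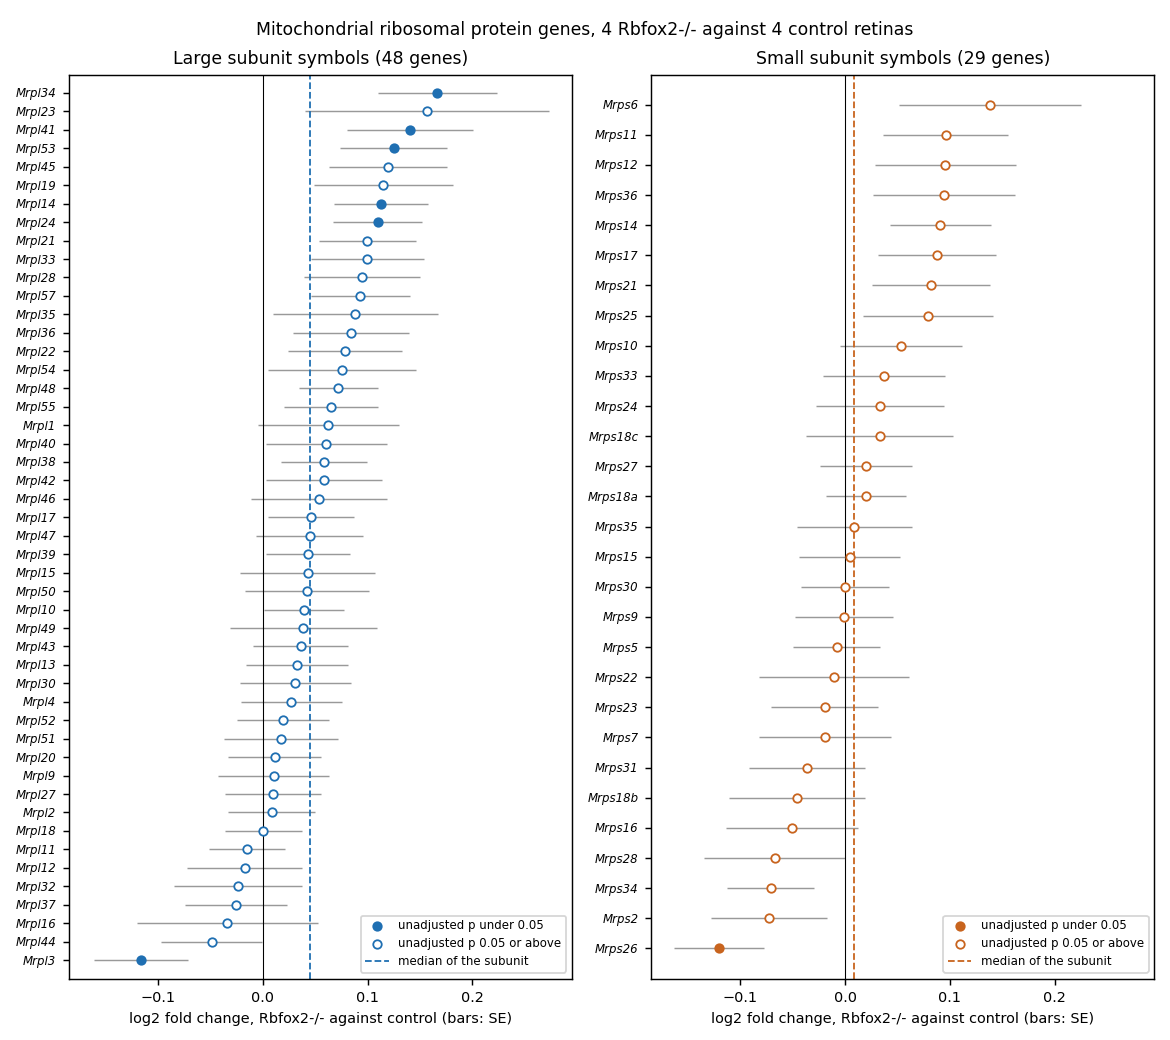
Log2 fold change of each member (points) with its standard error (bars), Rbfox2-/- against control, from edgeR's quasi-likelihood fit to all 8 mice, in the large (left) and small (right) subunit symbols. Filled points have an unadjusted p under 0.05, 5 above and 1 below 0 on the left and 1 below 0 on the right. None has an adjusted p under 0.05, and the dashed medians stand at 0.045 and 0.0086.

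The subunits were also followed by mouse with a score per retina. It is the mean over the genes of log2 CPM, set to a mean of 0 in the controls, and it carries no test because the family was taken up with results known.
The large subunit score was -0.0053 in M833, -0.042 in M894, -0.0011 in M896 and 0.049 in M898 among the controls. The Rbfox2-/- values were 0.043, 0.077, 0.093 and -0.014. M901 and M902 lay above every control, M893 just under the highest control and M909 among the controls, so the groups overlapped.
The small subunit score was -0.0078, -0.040, -0.016 and 0.064 in the controls. Among the Rbfox2-/- mice it was 0.014, 0.018, 0.064 and -0.036. No Rbfox2-/- mouse lay above the highest control, M898, but M902 at 0.0641 was all but level with its 0.0643. With the median over genes, or with proteins assigned by their place in the complex, 1 Rbfox2-/- mouse lay above all controls.
Retinas with a high large subunit score mostly had a high small subunit score too, and the difference between both scores varied less within a group. Large minus small was 0.0025 in M833, -0.0020 in M894, 0.015 in M896 and -0.016 in M898. The Rbfox2-/- values were 0.029, 0.059, 0.029 and 0.021. All 4 Rbfox2-/- mice lay above all 4 controls.
The mean difference was 0.035 on the log2 scale, that is 2.43%, with an SD of 0.013 among the controls and 0.017 among the Rbfox2-/- mice. The SDs of the large subunit score were 0.037 and 0.047. It was 0.025 without M901 and M902, with the other 2 Rbfox2-/- mice still above all controls, and 0.036 with the proteins assigned by their place in the complex. With the median over genes in place of the mean it was 0.029, and 3 of the 4 Rbfox2-/- mice lay above all controls.
Summed over genes, the large subunit took 2.06 to 2.09 times the CPM of the small subunit in the controls and 2.11 to 2.16 times in the Rbfox2-/- mice.

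**Figure D3:**
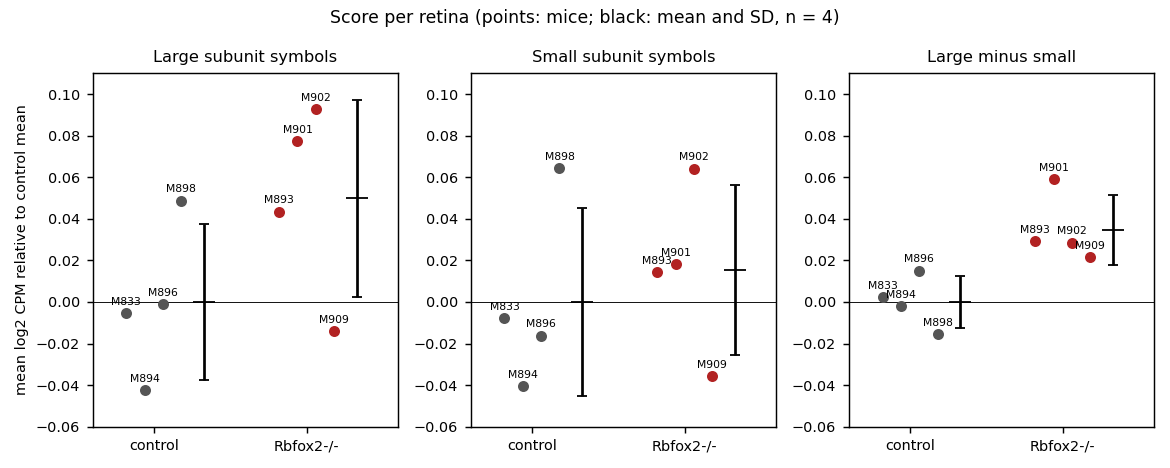
Score per retina of the large subunit genes, of the small subunit genes and of their difference (mean log2 CPM relative to the control mean), for the 4 control (grey) and 4 Rbfox2-/- (red) mice, with the mean and SD of each group in black. The groups overlap in both subunit scores, while in the difference the Rbfox2-/- mice lie between 0.021 and 0.059 and the controls between -0.016 and 0.015.

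M901 and M902, which had the highest large subunit scores, also lay outside the controls in the scores of 3 sets of marker genes. The rod marker score, computed in the same way, was 0.15 in both M901 and M902, 0.033 in M893 and 0.060 in M909. In the controls it was -0.029 to 0.052. Of the 10 rod markers 9 had a log2 fold change above 0, against 50.7% of all genes tested. At an unadjusted p under 0.05 in edgeR's quasi-likelihood test 4 were higher, against 6.42% of all genes. Without M901 and M902, 7 of 10 lay above 0, with 3 higher and 1 lower at that threshold. Rod and large subunit scores did not run together in every mouse. They were -0.0027 and 0.049 in M898, and 0.060 and -0.014 in M909. The Müller glia score was -0.14 in M901 and -0.17 in M902, against -0.033 to 0.076 in the controls, and the 7 markers summed to 4573 to 5117 CPM in Rbfox2-/- and 5074 to 5616 CPM in control mice. The score of ciliary and pigment epithelium, tissues that border the retina, was -2.22 in M901 and -1.76 in M902, against -0.996 to 1.07 in the controls. Its 10 markers summed to 81.8 to 201 CPM in Rbfox2-/- and 110 to 299 CPM in control mice, with no marker at 0 in any library.
The 12 inner retina markers, which cover the cell types that express Rbfox2 per the study, summed to 1297 to 1405 CPM in Rbfox2-/- and 1370 to 1428 CPM in control mice. Their score was -0.118 to 0.031 in Rbfox2-/- and -0.119 to 0.068 in control mice, so the groups overlapped. Of the 12 markers 8 had a log2 fold change below 0, where 50.7% of all genes tested lay above 0. In 3 of the 12 markers all 4 Rbfox2-/- mice lay below every control, a larger share than the 3.39% of all genes tested. In 0 of the 12 did all 4 lie above. At an unadjusted p under 0.05 in edgeR's quasi-likelihood test, 1 marker was higher and 1 lower. Over all genes tested these shares were 6.42% and 6.87%. Calb1, the calcium buffer calbindin, fell by 0.40 on the log2 scale (SE 0.036), with an adjusted p of 0.0034 in edgeR's quasi-likelihood test. Without M901 and M902, at 2 against 4 mice, 0 of the 12 markers passed. The lowest adjusted p among them was then 0.0501 in the same test. In the study's retinal sections, calbindin protein staining appeared unaffected. Of the blood markers 2 were in the table, and they summed to at most 3.61 CPM. In whole retina fewer cells of a type and less RNA per cell cannot be told apart, and the part of cell composition in the values of the members was not tested.

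The 5 members with an unadjusted p under 0.05 that were higher in Rbfox2-/- retinas all belonged to the large subunit, which holds 48 of the 77. They are 6.49% of the members, near the 6.42% of all genes that were higher. In either direction, 12.5% of the large subunit genes passed that threshold, against 13.3% of all genes tested.
Mrpl34 (chr8:71464959-71465747), the counterpart of bacterial L34, stood at 19.9, 21.4, 19.9 and 21.1 CPM in the controls. The Rbfox2-/- values were 22.99, 24.1, 24.4 and 20.9 CPM. M909 lay within the controls and the other 3 above them. Its log2 fold change was 0.17 (SE 0.057), with an adjusted p of 0.276 in edgeR's quasi-likelihood test, and 0.090 without M901 and M902.
Mrpl24 (chr3:87919506-87923672), whose bacterial counterpart is an early assembly protein near the tunnel exit, stood at 32.0, 32.1, 30.0 and 30.8 CPM in the controls. The Rbfox2-/- values were 34.2, 34.1, 34.6 and 31.9 CPM. Here too 3 mice lay together above the controls, and M909 lay among the controls. This gave a log2 fold change of 0.11 (SE 0.042), with an adjusted p of 0.322 in edgeR's quasi-likelihood test, and 0.079 without M901 and M902. Mrpl24 overlaps Rrnad1 on the other strand.
Mrpl14 (chr17:45686322-45698495), a protein of the face turned to the small subunit, stood at 15.4, 15.1, 15.5 and 16.4 CPM in the controls and at 16.7, 16.5, 17.3 and 17.0 CPM in the Rbfox2-/- mice. The groups did not overlap. Its fitted log2 fold change was 0.11 (SE 0.045), with an adjusted p of 0.333 in edgeR's quasi-likelihood test, and hardly moved without M901 and M902, at 0.11. Its gene overlaps that of Tmem63b on the other strand, which starts nearby and had a log2 fold change of -0.0034.
Mrpl53 (chr6:83109040-83109939), a mitochondria-specific protein, stood at 13.0, 13.5, 13.5 and 13.2 CPM in the controls and at 13.6, 15.2, 15.1 and 14.1 CPM in the Rbfox2-/- mice. The groups did not overlap, but M893 lay close to the controls. The log2 fold change was 0.13 (SE 0.051), with an adjusted p of 0.344 in edgeR's quasi-likelihood test, and 0.059 without M901 and M902. Mrpl53 overlaps Gm42688 on the same strand and Ccdc142os on the other.
Mrpl41 (chr2:24974117-24975098), also mitochondria-specific, stood at 25.7, 25.5, 24.9 and 28.7 CPM in the controls and at 29.9, 29.3, 30.0 and 26.3 CPM in the Rbfox2-/- mice. The groups overlapped through M898 and M909. Its log2 fold change was 0.14 (SE 0.060), with an adjusted p of 0.363 in edgeR's quasi-likelihood test, and 0.099 without M901 and M902. Pnpla7, a lysophospholipase that starts on the other strand within 1000 bases, had a log2 fold change of -0.28 and an adjusted p of 0.159 in the same test.

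The 2 members with an unadjusted p under 0.05 that were lower came from both subunits, and their fold changes hardly moved without M901 and M902.
Mrps26 (chr2:130563742-130568695), a mitochondria-specific protein of the small subunit, stood at 29.4, 31.7, 31.3 and 32.5 CPM in the controls and at 28.9, 27.7, 29.2 and 29.0 CPM in the Rbfox2-/- mice. The groups did not overlap, with the control M833 just above the knockouts. This gave a log2 fold change of -0.12 (SE 0.043), with an adjusted p of 0.286 in edgeR's quasi-likelihood test, and -0.11 without M901 and M902. It overlaps 4930473A02Rik on the other strand.
Mrpl3 (chr9:105053239-105079888), the counterpart of bacterial L3 that reaches toward the peptidyl transferase centre, stood at 22.6, 24.01, 23.3 and 23.4 CPM in the controls. It stood at 21.1, 20.5, 22.5 and 22.01 CPM in the Rbfox2-/- mice, all below every control, M902 by the least. Its fitted log2 fold change was -0.12 (SE 0.044), with an adjusted p of 0.321 in edgeR's quasi-likelihood test, and -0.12 without M901 and M902. Mrpl3 overlaps Gm47106 on the other strand.

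In all, 4 members lay above every control in all 4 Rbfox2-/- mice and 3 below, where 3.64% of the genes tested did so upward and 3.39% downward. The first were Mrpl14, Mrpl48, Mrpl53 and Mrpl57, the second Mrpl3, Mrps26 and Mrps34. The 4 upward members are 5.19% and the 3 downward ones 3.90% of the 77, near those shares.
Mrpl48 had 23.1 to 24.2 CPM in the controls and 24.4 to 25.3 CPM in the Rbfox2-/- mice, and a log2 fold change of 0.072 (SE 0.038). It overlaps Rab6a on the other strand. Mrpl57 had 18.2 to 20.1 and 20.2 to 21.3 CPM, and a log2 fold change of 0.093 (SE 0.047).
Mrps34 (chr17:24895116-24897502), a mitochondria-specific protein of the small subunit, had 23.8, 23.7, 23.5 and 25.4 CPM in the controls and 23.4, 22.6, 23.2 and 22.6 CPM in the Rbfox2-/- mice. Its log2 fold change was -0.071 (SE 0.041), with and without M901 and M902, and its adjusted p 0.489 in edgeR's quasi-likelihood test. Mrps34 overlaps Nme3 on the same strand and Mapk8ip3 on the other.

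**Figure D4:**
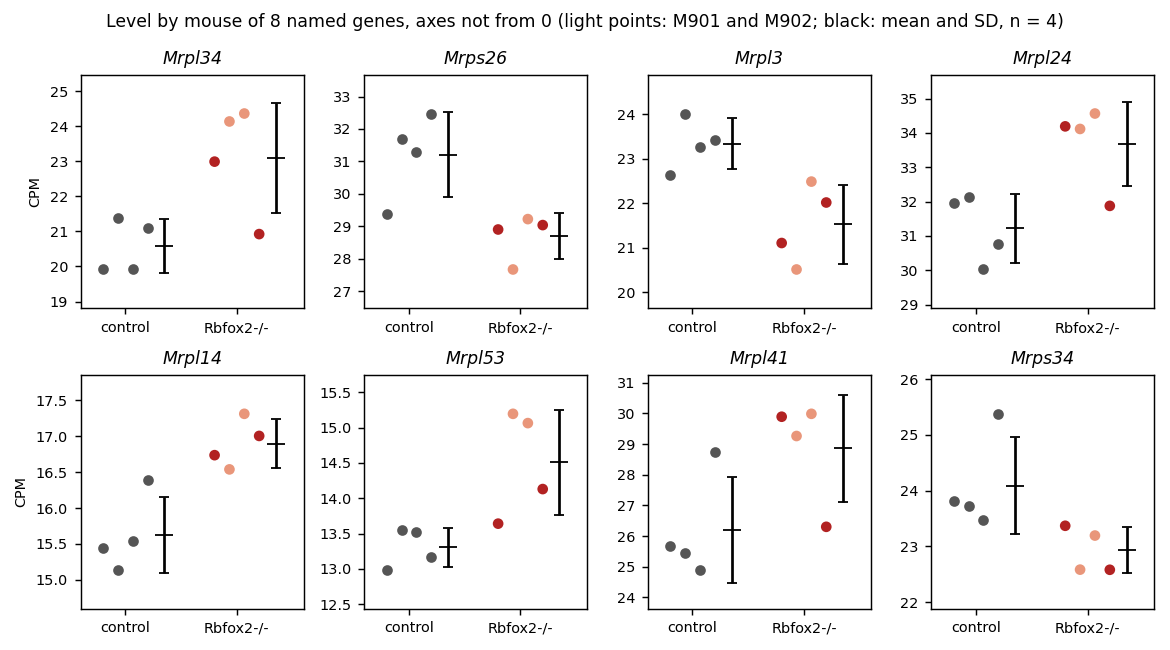
CPM of the 7 members with an unadjusted p under 0.05 and of Mrps34 in each control (grey) and Rbfox2-/- (red, light red for M901 and M902) mouse, with the mean and SD of each group in black. Each axis covers the range of its gene and does not start at 0. The groups do not overlap in Mrps26, Mrpl3, Mrpl14, Mrpl53 and Mrps34, while M909 lies among the controls in Mrpl34, Mrpl24 and Mrpl41.

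Another 3 members were among those with the highest or lowest log2 fold changes, and their groups overlapped.
Mrps6, the counterpart of bacterial S6, had 10.8, 10.7, 10.02 and 12.2 CPM in the controls and 13.9, 11.9, 11.5 and 10.8 CPM in the Rbfox2-/- mice. M893 was the highest of all mice, and M901, M902 and M909 lay among the controls. Its log2 fold change was 0.14 (SE 0.087), and 0.061 without M893, and its adjusted p was 0.527 in edgeR's quasi-likelihood test. Its gene overlaps Slc5a3 on the same strand.
Mrpl23 had 0.939 to 1.04 CPM in the controls and 1.02 to 1.17 CPM in the Rbfox2-/- mice. For this gene the log2 fold change of 0.16 had an SE of 0.12, and its adjusted p was 0.591 in edgeR's quasi-likelihood test.
Mrps2, the counterpart of bacterial S2, had 26.6 to 30.4 CPM in the controls and 25.003 to 28.3 CPM in the Rbfox2-/- mice. Its log2 fold change was -0.073 (SE 0.055), and it moved to -0.13 without M901 and M902, to -0.036 without M909 and to -0.040 without M898.

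Other members are given for their known roles and were picked after their values had been seen. Mrpl12, the stalk protein that contacts translation factors, had a log2 fold change of -0.017 (SE 0.055). Mrpl45, which tethers the ribosome to the inner membrane and carries NRF1 cores in the promoter shown above, had 0.12 (SE 0.056) with an adjusted p of 0.396 in edgeR's quasi-likelihood test. Without M901 and M902 it was 0.050.
Mrps12, a protein of the decoding centre, had 0.096 (SE 0.067), and Mrps7, an early-binding protein of the small subunit head, -0.020 (SE 0.063). Both ranges overlapped between the groups.
The 3 paralogs of bacterial S18 lay close to 0. Mrps18a had a log2 fold change of 0.020 (SE 0.038), Mrps18b of -0.046 (SE 0.065) and Mrps18c of 0.033 (SE 0.070), each within its error of 0. In the controls they stood at 28.8 ± 0.757, 8.66 ± 0.711 and 17.7 ± 1.35 FPKM (SD, n = 4), so that the member placed in the large subunit had the highest level. Mrps30, the other large subunit protein with a small subunit name, had a log2 fold change of -0.00037 (SE 0.042). Mrps36 had 0.094 (SE 0.068) at a level of 7.49 ± 0.447 FPKM.

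**Figure D5:**
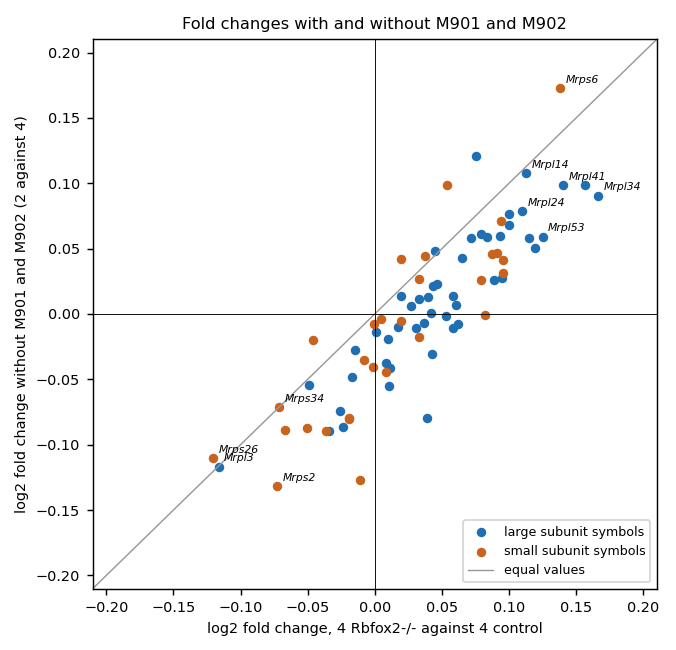
Log2 fold change of each member with all 8 mice (x axis) and without M901 and M902 (y axis), large subunit symbols in blue and small in orange, with the line of equal values in grey. Both axes share the 4 controls, M893 and M909. Of the 77 points 69 lie below the line, and 39 of 77 are above 0 on the y axis against 57 on the x axis.

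The other genes of mitochondrial gene expression were read from the same fit. No gene of 5 further lists passed an adjusted p under 0.05 in edgeR's quasi-likelihood test. Of their 86 genes 15 had an unadjusted p under 0.05, where 13.3% of all genes did. Of the 86, 14 were higher at that threshold, where 6.42% of all genes were. Over all genes tested 1079 were higher and 1154 lower at that threshold. For the counts above 0 in each list, the share over all genes was 50.7%.
The first list holds the 5 subunits with other names, Dap3, Ptcd3, Chchd1, Aurkaip1 and Gadd45gip1. Of these 4 had a log2 fold change above 0 and 0 an unadjusted p under 0.05 in either edgeR or DESeq2. The median was 0.038, close to that of the members. Dap3, a GTP-binding protein of the small subunit, had 45.2 to 48.3 CPM in the controls and 46.9 to 49.7 CPM in the Rbfox2-/- mice. Ict1, the older symbol of Mrpl58, a large subunit protein with peptidyl-tRNA hydrolase activity, was added after its values had been seen and had a log2 fold change of 0.055 (SE 0.040).
Of 26 assembly factors 18 lay above 0, with 5 higher and 1 lower at an unadjusted p under 0.05. The gene with the lowest p was Mettl15, which methylates the small subunit ribosomal RNA. It stood at 4.53, 4.95, 4.48 and 4.70 CPM in the controls and at 5.69, 5.33, 5.41 and 5.41 CPM in the Rbfox2-/- mice. The groups did not overlap, and the log2 fold change was 0.23 (SE 0.067), with an adjusted p of 0.239 in edgeR's quasi-likelihood test, and 0.25 without M901 and M902.
Of 16 translation factors 11 lay above 0, with 3 higher at an unadjusted p under 0.05. The lowest p was that of 2810006K23Rik, the older symbol of Mtrfr, a protein that rescues stalled mitochondrial ribosomes. It stood at 14.7, 13.3, 12.3 and 13.5 CPM in the controls and at 16.2, 15.9, 15.4 and 15.2 CPM in the Rbfox2-/- mice, without overlap. The log2 fold change was 0.22 (SE 0.059), with an adjusted p of 0.216 in edgeR's quasi-likelihood test and of 0.030 in DESeq2, and 0.22 without M901 and M902.
Of 20 tRNA synthetase genes 16 lay above 0, with 4 higher at an unadjusted p under 0.05. Aars2, the alanyl-tRNA synthetase of mitochondria, stood at 41.6, 40.4, 36.3 and 35.8 CPM in the controls and at 43.9, 42.7, 46.9 and 42.9 CPM in the Rbfox2-/- mice, without overlap. Aars2 had a log2 fold change of 0.20 (SE 0.058), with an adjusted p of 0.239 in edgeR's quasi-likelihood test. Of 19 transcription and RNA processing genes 14 lay above 0, with 2 higher at an unadjusted p under 0.05, and the lowest p was that of Mterf1b, a termination factor, with a log2 fold change of 0.30 (SE 0.12). Of the listed mitochondrially encoded genes 0 were found by symbol in the count table, so they could not be analysed here.
Of the genes that start on the other strand within 1000 bases of a member, 29 were tested. A log2 fold change above 0 was found in 16 of these 29, where 50.7% of all genes tested had one, and the median was 0.016. At an unadjusted p under 0.05 there were 4 of the 29, near the 13.3% of all genes tested. None, 0 of 29, passed the adjusted threshold in edgeR's quasi-likelihood test.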

How the data were processed

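Whole retinas of 8 mice, 4 per group, were analysed, 1 library per mouse. The authors aligned paired reads to mm10 with STAR, kept uniquely mapped reads, counted them per gene with HTSeq and deposited raw counts. The deposited FPKM values were computed by the authors per gene length and depth. The submitters' processing notes name CASAVA 1.8.2 and edgeR. The columns of the authors' own comparison (fold changes, p-values) were not used. The strand setting of the counting and the software behind the FPKM are not given in the sources used here.

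From the counts, 16797 genes passed filterByExpr of edgeR 4.0.16 (R 4.3.3), were normalized by TMM and fitted with the quasi-likelihood test on all 8 mice without covariates. Adjusted p-values are two-sided and adjusted by Benjamini-Hochberg over all genes tested. Scores are means of log2 CPM with a prior count of 2. Alternatives were DESeq2 1.42.0, limma-voom (limma 3.58.1), the likelihood ratio test, other normalizations and filters, 1 surrogate variable (sva 3.50.0), log2(FPKM + 0.1), a prior count of 0.5, and leaving out mice. On simulated counts with genes changed 2-fold, the quasi-likelihood test recovered 93.5% of 200 changed genes and called 11 others among 16727. The changed genes were drawn only from those above a minimum mean count. The members' log2 fold changes of -0.12 to 0.17 were far smaller than 2-fold, so this share does not give the recovery for them.

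The total counts ranged from 160630226 to 211283591 per mouse, so 3 counts equal at most 0.0187 CPM, a limit that covers counting error only. Nothing says that litters or extractions differed between mice, and p-values measure the spread between these mice.

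The members, lists and tests were chosen with earlier results of these data known. Named are the members with an unadjusted p under 0.05 (at most 12), the 4 highest and 4 lowest log2 fold changes, the 5 highest and 5 lowest FPKM, Mrps18a, Mrps18b, Mrps18c, Mrps30 and Mrps36, the lowest p of each companion list, Rbfox2 and Xist. Mrpl12, Mrpl22, Mrpl45, Mrpl46, Mrpl48, Mrpl57, Mrps7, Mrps11, Mrps12 and Ict1, and the neighbouring genes, were named after their values were seen. Of 145 listed genes 127 were found in the table, 10 of them by an older symbol.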

Additional observations from a re-analysis of the deposited data

Results flagged for a closer look

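M909 stood far below the other 3 Rbfox2-/- mice in 2 of the named genes, by the gap to the nearest mouse as a share of the range (Dixon's ratio, above its critical value at the 95% level). Mrpl24 was at 31.9 CPM in M909 and at 34.1 to 34.6 CPM in the other 3, a ratio of 0.833. Mrpl19 was at 17.6 CPM in M909 and at 20.6 to 21.3 CPM in the others, a ratio of 0.830. Over the 58 groups of 4 examined, chance flags about 1 in 20, or 2.9, so that 2 flags are no more than chance gives.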

How the results depend on the processing

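No alternative gave a member an adjusted p under 0.05. The members above 0 ranged from 49 to 66 of 77 when single mice were left out. At an unadjusted p under 0.05 the counts of 5 higher and 2 lower members became 1 and 0 in the likelihood ratio test, 0 and 0 without M901 and M902, and 0 and 0 with 1 surrogate variable. Leaving out single mice gave 1 to 10 higher members, with 1 without M896 or M902, 2 without M893 or M901, 3 without M833 or M894 and 10 without M909, and 0 to 2 lower members, with 0 without M898 or M901 and 1 without M893, M894 or M896. Without M901 and M902 the genes with an unadjusted p under 0.05 fell from 6 to 2 among assembly factors and from 3 to 1 among translation factors. They fell from 4 to 1 among tRNA synthetases and from 2 to 0 among transcription genes, at 2 against 4 mice. Genes above 0 stayed at 16 of 20 tRNA synthetases. They went from 18 to 15 of 26 assembly factors and from 11 to 9 of 16 translation factors. For transcription genes it was from 14 to 9 of 19, and for subunits with other names from 4 to 3 of 5.

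Without M901 and M902, 18 of the 77 members turned from above to below 0. Among the genes followed under every alternative (those named by their p, fold or place in the complex, without Mrps30, whose value was -0.00037), the sign turned for 3 close to 0. Mrps18a was -0.0056 without M901 and M902 and -0.0016 with 1 surrogate variable. Mrps18c was -0.017 and -0.015 under these, and -0.015 to 0.071 when single mice were left out, negative without M894. Gadd45gip1 was -0.030 and -0.019, and -0.0023 to 0.068, again negative without M894. The cause was not tested. The mean small subunit score of the Rbfox2-/- mice was 0.015 above the controls, -0.011 without M901 and M902, -0.00099 without M902 and -0.0016 on the log2(FPKM + 0.1) scale. With the FPKM scale 0 Rbfox2-/- mice lay above all controls in the score over all members, against 2 with CPM. Of the 86 companion genes 1, 2810006K23Rik, passed an adjusted p under 0.05 in DESeq2. No paired analysis was possible because the labels give no shared replicate numbers. With 4 mice per group, differences of a few percent in single members did not pass the adjusted threshold. The smallest difference that could be detected was not determined.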
